A study of Mus musculus with 4 samples.

Results

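Gnas and Gm20721 are annotated on opposite strands of mouse chromosome 2, and nearly all exon bases of Gm20721 lie within exons of Gnas. They are 2 of the 50600 gene rows of the deposited tables. The pair was chosen on its measured counts, so its levels below are a description and carry no test. The libraries were made from T-helper 2 (Th2) primary cells of C57BL/6NJ mice, the CD4 T cell subset known for type 2 cytokines. The 4 libraries are biological replicates 1 to 4 of a single group, and neither another cell type nor a treated or control group is included. All 4 libraries carry the same donor record, and no label says that they came from separate mice, so p-values reflect the spread among these 4 libraries alone, and that spread may be technical. Sex was not collected and age is given as unknown. Paths in the file headers name 24 hours, which the labels do not mention, and the labels name the assay total RNA-seq but link to a protocol titled for poly(A)-selected RNA.

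Gnas encodes the alpha subunit of the stimulatory G protein, Gs-alpha, which passes the signal of many receptors on to adenylyl cyclase and so raises cyclic AMP (cAMP). In T cells, cAMP raised by prostaglandin E2 or adenosine is known to dampen activation. The Gnas locus is imprinted: alternative first exons joined to shared downstream exons give Gs-alpha, the extra-large form XLas, the secretory protein Nesp55 and a non-coding transcript, and an antisense RNA, Nespas, runs across the Nesp exon. Gm20721 is a predicted gene with no role given in the files. It carries the protein-coding biotype in GENCODE, at annotation level 3, and rests on 1 transcript with transcript support level 5.

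The structure of the pair is given first, because every count below depends on it. Gnas (ENSMUSG00000027523.19) lies on the plus strand at chr2:174284320-174346744 in mm10, a span of 62.4 kb with 19 merged exons and 11186 exon bases. Gm20721 (ENSMUSG00000090625.1) lies on the minus strand at chr2:174330319-174346712, starting 46.0 kb into Gnas, with 13 exons and 1484 exon bases. Of those bases, 1469 (99.0%) lie in Gnas exons, and they make up 13.1% of the exon length of Gnas. Gm20721 thus mirrors the shared 3' exons of Gnas and leaves out most of its alternative first exons, since 8674 Gnas exon bases lie upstream of it. The coding parts match too, with 939 of the 954 annotated coding bases of Gm20721 inside coding sequence of Gnas on the other strand. Exons 1 to 4 of Gm20721 have both ends at the ends of a Gnas exon, and 7 of its 12 introns have the same start and end as a Gnas intron.

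**Figure D1:**
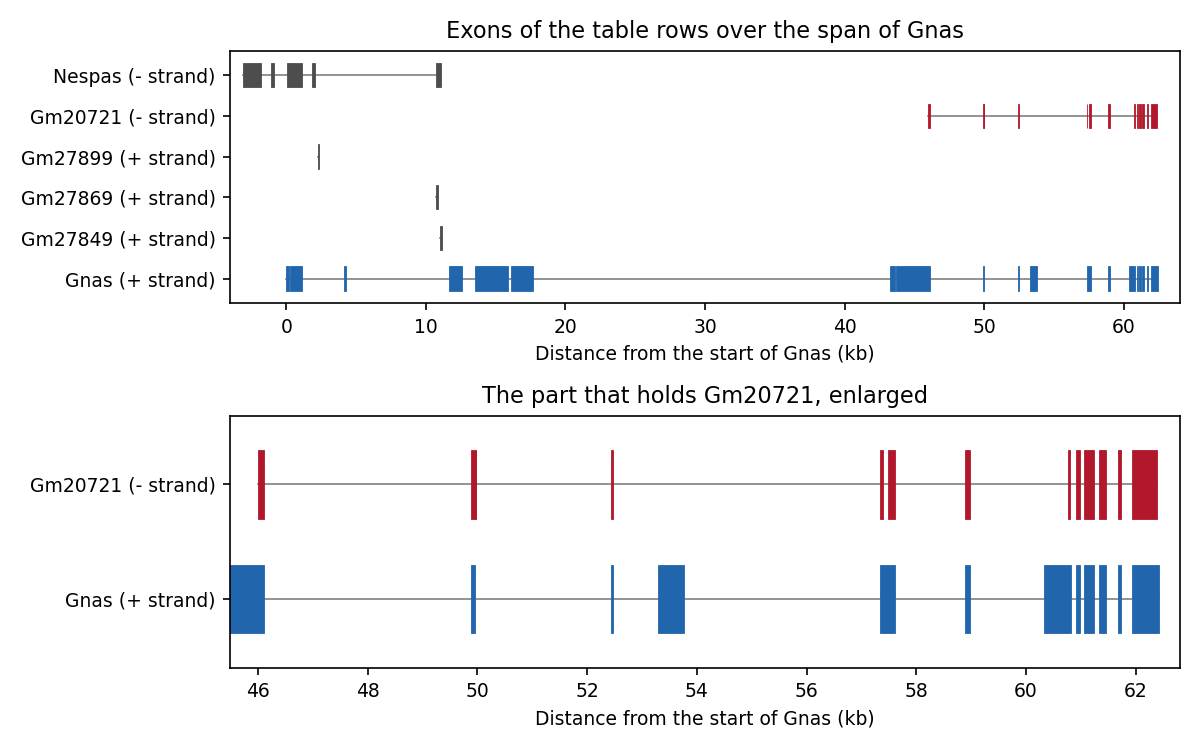
Exons (boxes) of every table row that overlaps the span of Gnas, against distance from the start of Gnas in kb, with Gm20721 in red, Gnas in blue and other rows in grey. In the lower panel, which enlarges the last part of the locus, the exons of Gm20721 stand over exons of Gnas, apart from 15 bases. Of these, 7 are the whole of exon 11.

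Exon 2 of Gm20721 (chr2:174345990-174346057, mm10, 68 bases) is printed from both strands to show what the shared bases are. Both lines are 5' to 3' from GENCODE M21 transcripts on GRCm38, with capitals for bases inside a Gnas exon, which here is every base. Each base of it is coding in both annotations.
Gm20721 exon 2, minus strand: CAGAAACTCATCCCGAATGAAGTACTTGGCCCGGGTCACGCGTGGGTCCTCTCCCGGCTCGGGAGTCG
The same bases in Gnas, plus strand: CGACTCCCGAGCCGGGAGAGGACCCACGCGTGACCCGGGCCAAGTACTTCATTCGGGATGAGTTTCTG
Exon 7 (chr2:174343198-174343297, minus strand, 100 bases) is shown because it runs 2 bases past the edge of the Gnas exon. Capitals again mark bases inside a Gnas exon, and the lower-case bases lie in the Gnas intron before it, where the plus strand reads ag.
Gm20721 exon 7, minus strand: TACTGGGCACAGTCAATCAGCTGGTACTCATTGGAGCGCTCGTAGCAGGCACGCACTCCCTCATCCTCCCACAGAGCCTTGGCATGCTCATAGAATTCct
Exon 5 runs past the Gnas exon in the same way, by 3 bases that read tag on the plus strand. The 15 bases of Gm20721 outside Gnas exons are in exons 5, 7, 9, 11 and 12, and 7 of them are the whole of exon 11.

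Intron 8 of Gm20721 (chr2:174341708-174341809, mm10, 102 bases) shows on which strand its ends follow the usual splice signal. Most mammalian introns begin with GT and end with AG on the transcribed strand. Intron 8 is 1 of the 7 introns with the positions of a Gnas intron, and the only one of the 12 whose sequence could be read, from a Gnas transcript that retains it. Capitals mark the first and last 2 bases, and both lines are 5' to 3'.
Intron 8, minus strand, as Gm20721 would read it: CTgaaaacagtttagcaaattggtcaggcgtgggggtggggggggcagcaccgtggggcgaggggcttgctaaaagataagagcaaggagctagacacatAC
Intron 8, plus strand, as Gnas reads it: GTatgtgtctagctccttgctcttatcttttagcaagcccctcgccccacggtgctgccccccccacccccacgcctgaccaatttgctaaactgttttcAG
The GT and AG ends stand on the strand of Gnas, and the strand of Gm20721 reads CT and AC. The other 11 introns were not read, and intron 11 is 4 bases long.

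Introns at the same positions on both strands were rare in the annotation. Over all genes of GENCODE M21 that also have a row in the counts, 8 pairs on opposite strands had at least 1 such intron. This search was added after the data had been seen. Gm20721 and Gnas shared 7, the most of these pairs. Slc1a1 and 4430402I18Rik followed with 4, then 3110021N24Rik and Zfyve9 with 3, and the other 5 pairs had 1 each.

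Gm20721 was one of the rows with the most counts in these libraries. It had 24303, 25976, 27220 and 25399 fragment counts in replicates 1 to 4, a mean of 25724.5 ± 1215 (SD, n = 4). The lowest and highest library differed by 1.12-fold. By mean count Gm20721 was at position 4 of 50600 rows, between positions 3 and 5 in single libraries, and it took 1.00% to 1.41% of a library's counts. The rows just above it in mean count were Phykpl (51862.5), encoding a phospholyase, and mt-Nd6 (39577), a mitochondrial subunit of respiratory complex I. The rows just below were Gm45552 (23927.5) and Tlcd1 (18410). Phykpl shares 809 exon bases with the other strand, mt-Nd6 14, Gm45552 158 and Tlcd1 642, so the strand limit given below holds for them too.

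Gnas itself had 65, 104, 74 and 65 counts in replicates 1 to 4, a mean of 77 ± 18.5 (SD, n = 4). Replicate 2 was the highest and the other 3 lay close together. In mean count Gnas was at position 2208, and between 1916 and 2334 in single libraries. Its neighbours in that order included Gm15392 and Zc3h6 (77.25 each) and Mtdh (77). Mtdh, with 78, 92, 96 and 42 counts, had less in replicate 4 than in each other replicate, whereas Gnas had 65 in replicate 4 and also in replicate 1.

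**Figure D2:**
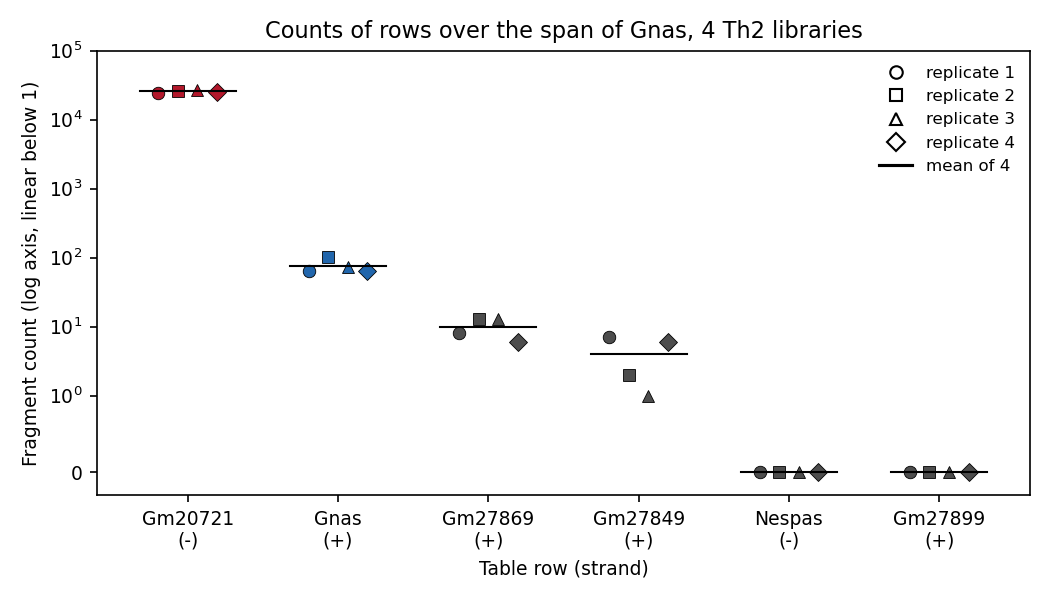
Fragment counts (vertical axis, log scale, linear below 1) of each table row over the span of Gnas in the 4 Th2 libraries, with 1 symbol for each replicate and a bar for the mean. Gm20721 lies between 24303 and 27220, Gnas between 65 and 104, and Nespas and Gm27899 at 0.

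The counts of the pair did not overlap in any library. Gm20721 had 374 times as many counts as Gnas in replicate 1, 250 times in replicate 2, 368 times in replicate 3 and 391 times in replicate 4. The log2 ratio averaged 8.41 ± 0.30 (SD, n = 4), and replicate 2, where Gnas was highest, was the lowest at 7.96. Gnas made up 0.267% of the counts of both rows in replicate 1 (95% exact Clopper-Pearson interval 0.206% to 0.340%), 0.399% in replicate 2 (0.326% to 0.483%), 0.271% in replicate 3 (0.213% to 0.340%) and 0.255% in replicate 4 (0.197% to 0.325%). These intervals cover counting error only. The interval of replicate 2 overlaps those of replicates 1 and 3 and begins just above the end of that of replicate 4. Summed over the libraries, Gm20721 had 102898 counts and Gnas 308.

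Gnas is the longer row, so the gap is wider per length. Gm20721 had 16377 to 18342 counts per kb of exon and Gnas 5.81 to 9.30. Per exon length the log2 ratio was 11.33, and 11.12 when Gnas was given only the 9717 exon bases it does not share with Gm20721. In TPM, which divides counts by exon length and rescales every library to the same total, Gm20721 had 13297, 13877, 11053 and 11507 and Gnas 4.72, 7.37, 3.99 and 3.91. The means were 12433 ± 1366 TPM for Gm20721, at position 5 of all rows, and 5.00 ± 1.63 TPM for Gnas (SD, n = 4 each).

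The strand to which a fragment is given decides which of these rows counts it. The deposited counts used strand setting 1 of featureCounts, per the file headers, and the orientation of the library kit is not given in the sources used here. A fragment from the 1469 shared bases fits both rows apart from its strand. Whether the fragments counted for Gm20721 came from the minus strand or from Gnas therefore cannot be told from the counts of this pair alone. It was not tested with the other rows. The Gm20721 and Gnas values are counts per strand as assigned, not levels of an antisense and a sense RNA.

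As CPM, counts scaled by the library's total count, both members spread by an amount that depended on the library total. Gm20721 had 13470, 14068, 10037 and 11705 CPM in replicates 1 to 4, 12320 ± 1823 on average (SD, n = 4), and Gnas had 36.0, 56.3, 27.3 and 30.0, 37.4 ± 13.1 on average. Replicate 3 was the lowest for both rows. One row, CT010467.1, took 1.02%, 1.14%, 28.6% and 14.4% of the counts of replicates 1 to 4. With totals that leave it out, Gm20721 had 13609, 14231, 14062 and 13677 CPM, a mean of 13895 ± 300. The highest was then 1.05 times the lowest, and with all counts the range was wider, from 10037 to 14068. Gnas had 36.4, 57.0, 38.2 and 35.0 CPM on those totals, with replicate 2 high and the other 3 within 35.0 to 38.2.

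**Figure D3:**
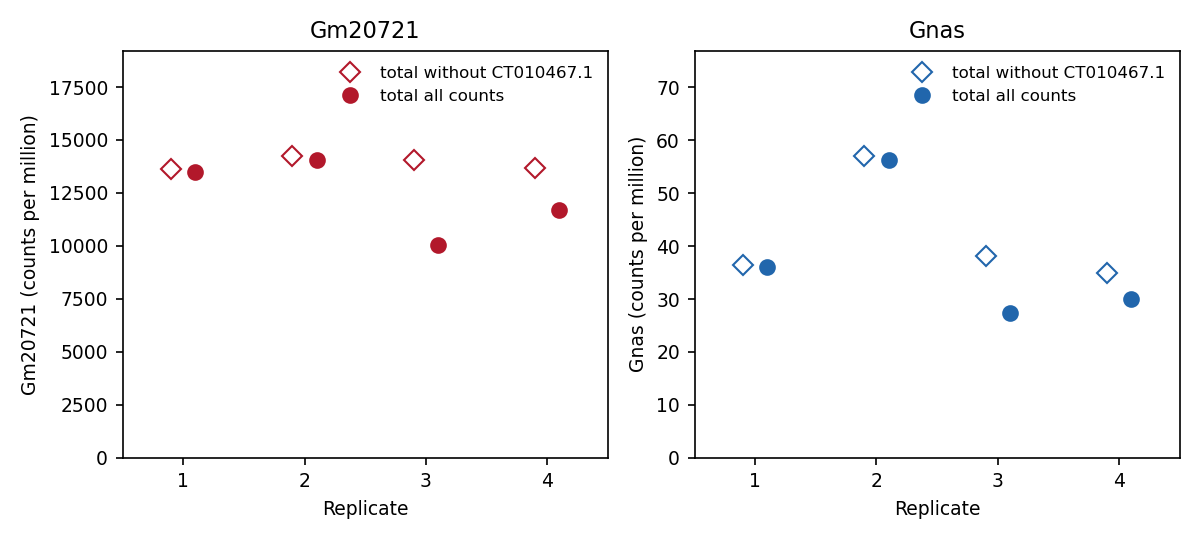
CPM of Gm20721 (left) and Gnas (right) in each replicate, with totals that leave out CT010467.1 (open diamonds) and with all counts (filled circles); both axes start at 0. Without CT010467.1, Gm20721 lies between 13609 and 14231 in all 4 libraries, and Gnas stands higher in replicate 2, at 57.0.

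The spread between replicates was not used to choose the members, so it was tested across all 4190 rows that passed a filter on low counts. Neither member passed the test for varying more than rows of like count. For Gm20721, edgeR's quasi-likelihood dispersion was 0.179 times the trend (Benjamini-Hochberg adjusted p = 0.991), and 8.81% of rows had a lower ratio. For Gnas the dispersion was 1.24 times the trend (edgeR, adjusted p = 0.987), and 60.4% of rows had a lower ratio. In this test 0 of 4190 rows, 0% of those tested, passed an adjusted p of 0.05, against 268 at an unadjusted p under 0.05, and the smallest adjusted p was 0.153. With DESeq2 size factors in place of TMM factors the count was also 0. A p above the threshold does not show that the 4 libraries had the same level.

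Replicate 4 had the fewest rows detected, 12398 against 13705 to 14083 in the others, and the pair was set beside other rows there. In log2 CPM, replicate 4 minus the mean of replicates 1 to 3 was -0.08 for Gm20721 and -0.35 for Gnas. The median over all 4190 filtered rows was -0.07. Among 1156 of these rows that share no exon base with another gene it was -0.35, and 28.9% of them were lower in replicate 4 by more than 1. Among 2872 rows that share at least 50 bases it was -0.02. Gm20721 thus lay at -0.01 and Gnas at -0.28 relative to the median of all rows. Another scaling moves every row alike and leaves these 2 values as they are. These differences are single values with no test.

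Few other rows had counts over the span of Gnas. Nespas (chr2:174281237-174295436, minus strand, 3143 exon bases) shares 988 exon bases with exons at the start of Gnas. It had 0 counts in all 4 libraries, which allows up to 0.575 to 0.775 TPM per library, taking 3 counts as the limit of a count of 0. This bounds counts assigned to the minus strand and, with the strand limit above, not the level of the Nespas RNA. Gm27899, a 64-base RNA of the misc_RNA biotype on the plus strand (chr2:174286608-174286671), was also at 0 in each library. It overlaps no exon of Gnas or Nespas. The upstream part of the locus, where the antisense RNA is annotated, therefore had no count in a minus-strand row in any library, whereas the downstream part had most of the counts of the locus in such a row.

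2 more short misc_RNA rows lie opposite exons of Nespas, between the first exons of Gnas. Gm27869 (chr2:174295071-174295192, plus strand, 122 bases, all inside a Nespas exon) had 8, 13, 13 and 6 counts, or 58.7 ± 21.5 TPM (SD, n = 4). Gm27849 (chr2:174295337-174295461, plus strand, 125 bases, 100 of them in a Nespas exon) had 7, 2, 1 and 6 counts, or 23.8 ± 18.5 TPM. Replicates 1 and 4 were the higher ones for Gm27849 and the lower ones for Gm27869. No base of either lies in a Gnas exon, so they stand in Gnas introns, and their TPM values are high for so few counts because the rows are short. Their sequences, 5' to 3' on the plus strand from GENCODE M21 (GRCm38), have capitals for bases inside a Nespas exon.
Gm27869: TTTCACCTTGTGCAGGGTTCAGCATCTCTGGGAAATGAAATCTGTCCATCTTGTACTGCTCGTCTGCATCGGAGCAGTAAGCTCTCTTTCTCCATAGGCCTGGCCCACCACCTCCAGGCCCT
Gm27849: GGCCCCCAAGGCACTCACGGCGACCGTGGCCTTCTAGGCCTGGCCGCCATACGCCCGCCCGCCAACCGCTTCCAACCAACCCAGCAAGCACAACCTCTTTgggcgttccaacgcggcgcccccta

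Each of the 15 other rows within 250 kb had a lower mean count than Gnas, which has 11186 exon bases. The highest in count was Ctsz, encoding the lysosomal protease cathepsin Z, with 52, 71, 62 and 73 counts. In replicate 4 it had more than Gnas, at 65. In TPM, Ctsz (32.1 ± 5.72), Prelid3b (6.29 ± 4.43) and Nelfcd (6.23 ± 2.77) had higher means than Gnas (5.00 ± 1.63), and the other rows had lower ones. Nelfcd, a subunit of the negative elongation factor, had 25, 35, 15 and 22, and shares 10 exon bases with Ctsz on the other strand. Prelid3b had 19, 27, 11 and 5 counts, Npepl1, an aminopeptidase, had 5, 5, 7 and 3, Atp5e, a subunit of ATP synthase, had 6, 6, 5 and 2, and Stx16, a syntaxin, had 1, 5, 3 and 0. Gm10714 had 2 counts in replicate 3 only, and Vmn1r-ps1 had 1 in each of replicates 1 and 2. The remaining 7 rows, among them the imprinted microRNA genes Mir296 and Mir298, had none.

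Gm20721 is one of many features that lie almost wholly opposite 1 gene, and it was set beside them by a comparison added after the data had been seen. There were 341 pairs in which at least 90% and at least 200 of a feature's exon bases were shared with a gene on the other strand. Gm20721 had the highest mean count of the 339 features. The second was Gm11175, opposite Jund, an AP-1 transcription factor, with 14442, and next came Gm17041 opposite Cish, a cytokine signalling inhibitor, with 7138.5. Of the 341, 99 (29.0%) had no count, and the median was 8.5. The feature had the higher mean in 182 pairs, the gene in 94, and they were equal in 65.

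Features taken for their own high counts mostly had a gene with few counts opposite, with exceptions. Taking features by their counts itself lowers the share of the gene, so these shares are a description. Over all 341 pairs the gene had the higher mean in 94, such as Tbp with 1956 against 89.75 for Pdcd2. Among 35 features with a mean of at least 1000, the gene's share of the counts of both had a median of 1.02% and ranged from 0.137% to 54.3%. Gnas, at 0.298%, was the third lowest, with 2 genes lower and 32 higher. Zfp36l1, an mRNA decay factor, was one of the lower ones, at 0.232%, with a mean of 7000 for Gm26669 opposite it. Jund had 0.369% and Cish 0.373%.

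**Figure D4:**
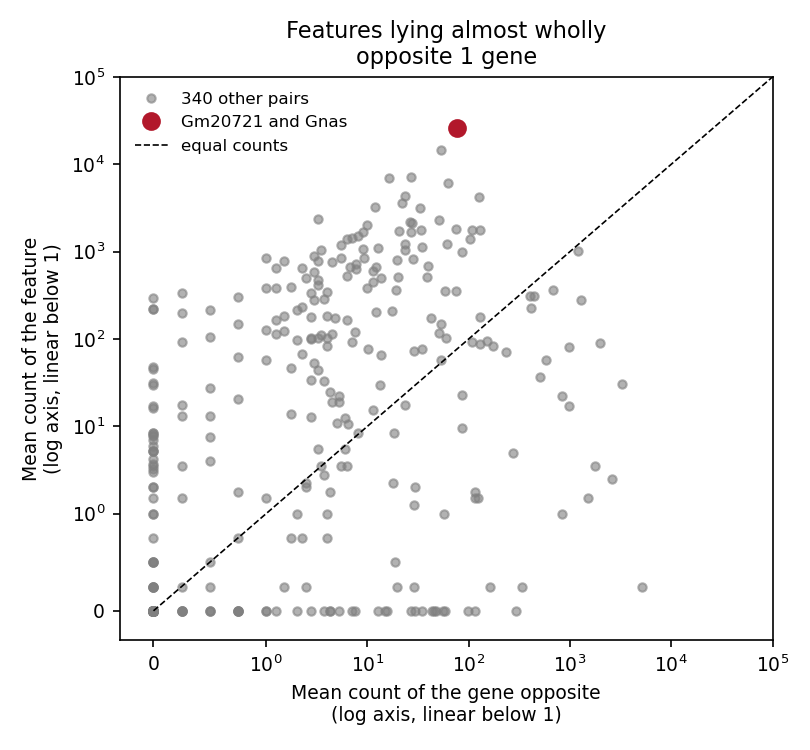
Mean count of each feature (vertical axis) against the mean count of the gene opposite (horizontal axis) for 341 pairs, both on log axes that are linear below 1, with the line of equal counts. Gm20721 (red) is the highest feature, at 25724.5 against 77 for Gnas.

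The limit on strand given above holds for every row, above and below. It covers rows that share exon bases with an opposite gene, such as Gnal, Gng13 and Adcy3. Rows that share none, such as Gnai2, Gng5 and Ptger2, are covered too, as fragments from the other strand would enter no row. Among rows with a count, the median log2 level relative to 1 TPM was -0.46 with no shared base. It was 2.34 with at least 50 shared. Rows that share at least 50 bases held 88.5% to 92.7% of the counts of a library. The levels of the other genes of the pathway were tested against 1 TPM, with an edgeR quasi-likelihood test over all 17203 rows with a count. An adjusted p under 0.05 put 37.6% of those rows above 1 TPM and 21.7% below. Besides Gnas, 88 genes of the G protein and cAMP pathway were in the tables in 7 lists, and 71 of them had a count. Of the 71, 22 were above 1 TPM and 24 below, and 17 and 0 with DESeq2 and 18 and 25 with limma on log2(TPM + 0.1). The count below was 10, 13, 8 and 22 without replicate 1, 2, 3 or 4, and 11 against 0.5 TPM. That is 31.0% above and 33.8% below, beside 37.6% and 21.7% of all rows with a count, and the share below rests on the tool, the level and which libraries enter. With bulk RNA, fewer cells of a type and less RNA per cell cannot be told apart at any of these levels.

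Of 16 G alpha genes, 13 had a count. Gnas is one of them and is given as a description only, since it was chosen on its counts. Besides Gnas, Gnal, Gnai2, Gnai3 and Gna13 were above 1 TPM, and 4 genes were below. Over all rows with a count, 37.6% were above and 21.7% below. The median log2 level relative to 1 TPM was -1.14 with Gnas included, against 0.18 over all rows with a count. Gnal, the alpha subunit of the olfactory stimulatory G protein and the closest relative of Gnas, had 660, 729, 823 and 696 counts, or 90.2 ± 8.32 TPM. It was higher than Gnas in every library, and it shares 365 exon bases with Mppe1, which had 13, 12, 12 and 6 counts. Gnai2, an inhibitory alpha subunit abundant in lymphocytes, had 30, 45, 47 and 27 counts (7.05 ± 1.94 TPM), with no shared exon stretch of 50 bases. Its TPM of 6.45, 9.44, 7.49 and 4.80 was higher than that of Gnas in the same library each time, while the ranges overlap. Gnai3, a related inhibitory subunit, had 13, 20, 13 and 3 counts (2.78 ± 1.77 TPM).

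The G12 family showed the pattern of the Gnas pair at lower counts. Gna13 had 20, 20, 23 and 7 counts (1.97 ± 0.842 TPM), while Gm11696, with which it shares 151 exon bases, had 410, 456, 479 and 608. Gna12 had 6, 2, 4 and 4 counts and passed the test in neither direction, and Amz1, a protease gene sharing 456 bases with it, had 277, 273, 289 and 294.

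The beta and gamma subunits bind G alpha as a dimer. Of 17 genes, 14 had a count. Of the 14, 6 (42.9%) were above 1 TPM and 4 below, beside 37.6% and 21.7% of all rows with a count. The median log2 level was -0.24. The highest was Gng13, a gamma subunit known from taste cells, with 377, 500, 451 and 574 counts (440 ± 78.7 TPM), opposite Chtf18 with 5, 6, 10 and 4. Gng3, a neuronal gamma subunit, had 85.3 ± 11.6 TPM and lies opposite Bscl2. Gngt2, a gamma subunit known from cones, had 27.8 ± 7.24 TPM, and the gene opposite it, Abi3, had 481, 548, 528 and 519 counts. Gng5, which shares no such stretch, had 7.71 ± 0.348 TPM. Among 9 chaperones and regulators, 8 had a count, and 2 of these (25%) were above and 1 below. Ric8a, an exchange factor and chaperone of G alpha subunits, was highest at 13.8 ± 1.96 TPM. It shares 808 exon bases with the other strand, 418 of them with Sirt3, which had 16, 15, 21 and 33 counts.

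Of 13 receptors that couple to Gs, 5 had no count. Of the other 8, 2 (25%) were above 1 TPM and 3 below, with a median of -1.25. Over all rows with a count, 37.6% were above and 21.7% below. Ptger4, a prostaglandin E2 receptor, had 338, 308, 332 and 308 counts (34.8 ± 5.20 TPM) and lies opposite Gm15937, with 2, 4, 2 and 3. Ptger2, the other Gs-coupled prostaglandin E2 receptor, had 63, 48, 35 and 57 (10.1 ± 3.35 TPM) and shares no such stretch. Ptgdr, a prostaglandin D2 receptor, and Gpr65, an acid-sensing receptor, were at 0 in each library. The features opposite them were not, as Gm16976 had 97, 70, 97 and 94 counts opposite Ptgdr and Gm47566 had 211, 168, 250 and 149 opposite Gpr65.

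Of 10 adenylyl cyclases, the enzymes that Gs-alpha activates, 7 had a count. Of the 7, 2 (28.6%) were above 1 TPM and 3 below, with a median of 0.25. Over all rows with a count, 37.6% were above and 21.7% below. Adcy3 had 22.2 ± 0.978 TPM, and Cenpo, a kinetochore gene that shares 1380 exon bases with it, had 785, 856, 834 and 854 counts. Adcy7, an isoform known from blood cells, had 42, 45, 57 and 42 counts (4.91 ± 0.491 TPM) with no such stretch. Of 14 cAMP effectors, all with a count, 2 (14.3%) were above and 6 below, with a median of -0.33. The 2 were Prkar1a, a regulatory subunit of protein kinase A, at 3.87 ± 2.50 TPM, with 25, 35 and 28 counts in replicates 1 to 3 and 3 in replicate 4, and Atf1, a CREB-family factor, at 2.31 ± 0.931 TPM. Of 10 phosphodiesterases, which break cAMP down, 8 had a count. Of the 8, 4 (50%) were above and 3 below, with a median of 0.18. Pde7a was highest at 4.49 ± 1.05 TPM, before Pde8b at 4.34 ± 2.09, a difference well within their spread.

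In these 7 lists, 21 genes besides Gnas share at least 50 exon bases with a feature on the other strand. The feature had more counts than the gene in each of the 4 libraries in 12 pairs, and the gene had more in each library in 6. Neither held in 3. Features such as Cenpo, Amz1 and Abi3 are named genes themselves. The same split was not taken over all rows that share at least 50 exon bases, so it does not set these lists apart. The highest of these features was Cenpo, with a mean of 832, against 25724.5 for Gm20721.

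**Figure D5:**
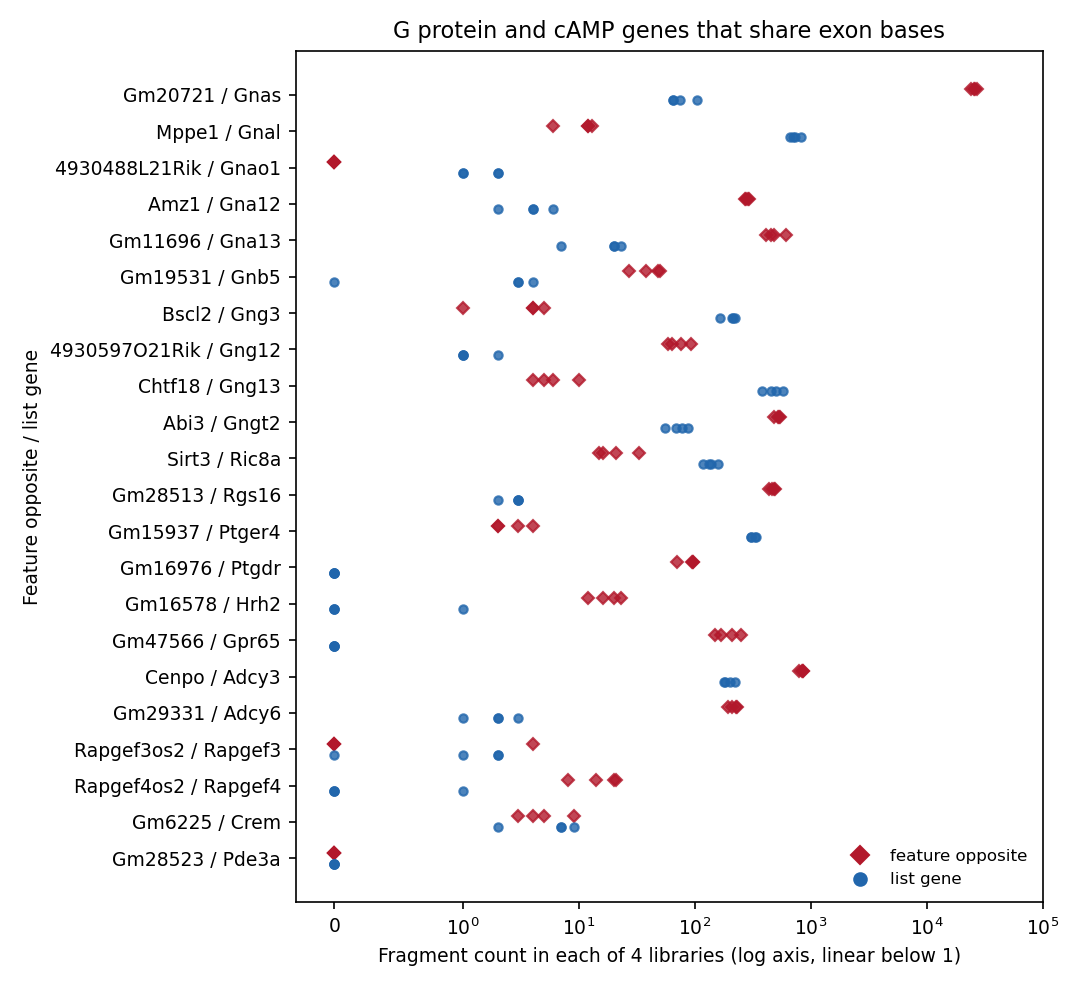
Counts in each of the 4 libraries (horizontal axis, log scale, linear below 1) of G protein and cAMP genes (blue circles) and of the feature on the other strand with which each shares at least 50 exon bases (red diamonds). Gm20721, opposite Gnas in the top row, lies far to the right of every other feature.

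Of 38 imprinted genes in a list that includes Nespas but not Gnas, 18 had a count. Of these, 6 (33.3%) were above 1 TPM and 4 below, beside 37.6% and 21.7% of all rows with a count. The median log2 level was 0.02. Inpp5f, an inositol phosphatase, was highest with 372, 390, 436 and 374 counts (33.8 ± 3.43 TPM) and shares no stretch of 50 bases. Next were Commd1 at 15.5 ± 0.685 TPM, Mest at 15.1 ± 2.72 and Nnat at 13.3 ± 4.84. Commd1 shares 203 exon bases with Zrsr1, which had 17, 7, 19 and 13 counts. Mest shares 912 with Copg2, which had 4, 10, 11 and 0. Zrsr1 and Copg2 are in the imprinted list too. Nnat shares 87 with Gm23134, which had 0 in each library. Features opposite imprinted genes that had high counts included Gm44560, with 1937, 1757, 2163 and 1628 against 28, 32, 41 and 28 for Ube3a, a ubiquitin ligase. Gm26841 had 2161, 2083, 2189 and 2098 counts, against 19, 21, 16 and 5 for H13, a signal peptide peptidase on the same chromosome as Gnas. Counts per gene do not separate the parental alleles, so imprinting itself was not measured.

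The rows nearest to each member in their pattern over the 4 libraries were found among 2739 rows with a mean count of at least 50, by Euclidean distance between centred log2 CPM values. For Gm20721 they were 4731419I09Rik (distance 0.019), B3gnt2 (0.028), Fam57b (0.031), Ap4m1 (0.032) and Gm26964 (0.033), against a median distance of 0.330. Their shared course, from the deviations of Gm20721, was 0.14, 0.20, -0.28 and -0.06 in replicates 1 to 4. These use all counts, and the low replicate 3 is not seen with totals that leave out CT010467.1, where Gm20721 had 13609, 14231, 14062 and 13677 CPM. For Gnas they included Mars (0.103), Slc5a10 (0.116), Armc5 (0.206) and Gm37915 (0.207), against a median of 0.679, and the deviations of Gnas were 0.01, 0.65, -0.40 and -0.26. With 4 libraries of 1 group this describes likeness only.

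The cell label was checked on marker lists. All 10 T cell markers were above 1 TPM, beside 37.6% of all rows with a count. Their summed counts were 1136 to 1499 per library, most of them from Cd247, which shares 3007 exon bases with Pou2f1. The other 9 summed to 211, 255, 189 and 63 in replicates 1 to 4, a sum added after the data had been seen, so replicate 4 was low. Cd3e, one of these 9, shares 135 exon bases with Gm48719, which had 2549 to 2857 counts. Of 6 Th2 markers, 4 were above, among them Il4, with 24, 21, 25 and 26 counts, and Gata3, with 20, 47, 44 and 22, while Il5 and Il13 had at most 1 count in a library. Il4 shares no exon base. Gata3 shares 155 with Gm13256, which had 1364, 1638, 1747 and 2006 counts. Il4ra, also above, shares 571 with Gm44876, which had 867, 927, 787 and 897. Ptgdr2, also above, shares 1031 with Ccdc86, which had only 10, 16, 7 and 8. Cd8a, Cd79b, Ms4a1, both natural killer markers and both globin genes were at 0. Cd8b1, a CD8 T cell marker, had 3 or 4 counts, and Cd79a, a B cell gene, had 9 to 15. Alas2, an erythroid marker, had 34, 39, 34 and 31 counts, was above 1 TPM and shares 311 exon bases with Apex2. Csf1r, a myeloid marker, had 983 to 1026 counts and shares 871 exon bases with Hmgxb3, Cd68 had 6 to 18 and the other 5 myeloid markers had none. The libraries held 1804217 to 2711948 counts, with 12398 to 14083 rows detected, and 3 counts were 1.11 to 1.66 CPM. Whether the members differ in level between cell types in the samples was not tested.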

How the data were processed

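Per the file headers, the authors made the deposited counts with featureCounts 1.4.6-p4, as raw fragment counts per gene over exons of GENCODE M13, with both ends aligned and strand setting 1. The assembly is mm10, per the labels. The counts are not normalized. The aligner's version is not given in the sources used here.

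Symbols were matched for 50376 of 50600 gene IDs. TPM, CPM and shared exon bases were computed from counts and coordinates in the tables, and sequences were read from GENCODE M21 transcripts, as no genome was used. Levels were tested with edgeR 4.0.16 as an intercept-only quasi-likelihood F test against 1 TPM, two-sided, and spread as quasi-dispersion against its trend, upper tail, with TMM factors and the default filter. Both were adjusted by Benjamini-Hochberg over all rows. On simulated counts the level test found 100% of 200 genes at 4 TPM and 92% at 0.25 TPM (16210 genes). The spread test found 77.5% of 200 genes put 4-fold higher in 1 library (4888 genes). In both simulations the changed genes were drawn above a minimum count and all genes had the same dispersion. The level test was also given the true scale. These rates may therefore not hold for the real data. Alternatives used limma 3.58.1, DESeq2 1.42.0, other levels, filters, scalings and lengths, and each replicate left out. R 4.3.3, Python 3.11.15, scipy 1.17.1 and bedtools 2.31.1 were used.

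The members and lists were chosen with earlier results of these data known. Named are the members, rows over or within 250 kb of Gnas, up to 4 genes of each list by mean TPM, the 5 nearest patterns, neighbours in mean count and features opposite list genes; other names were chosen after their values were seen. Some rows that this rule takes are not reported here. Depth was 1804217 to 2711948 counts per library.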

Additional observations from a re-analysis of the deposited data

Results flagged for a closer look

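Both values flagged come from replicate 2, in which Gnas had 104 counts. For Gnas CPM with totals that leave out CT010467.1, the gap between replicate 2 (57.0) and the nearest other library (38.2) was 0.853 of the whole range, above Dixon's 95% critical value for 4 samples. For the log2 ratio of Gm20721 to Gnas the gap was 0.865 of the range, with replicate 2 at 7.96 and the others at 8.52 to 8.61. Chance flags about 1 in 20 groups, and these 2 share the same counts of Gnas. Gnas CPM with all counts in the totals, at 36.0, 56.3, 27.3 and 30.0 in replicates 1 to 4, was not among the values flagged. Gm20721 was not flagged.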

How the results depend on the processing

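The count of rows above 1 TPM (6460) stayed within 1.5 times under each alternative run, and was 5809 to 6910 with a replicate left out. The count below 1 TPM (3728) did not: it was 11 with DESeq2, 13 with a mean count of at least 10 and 1499 against 0.5 TPM, and 1252 to 2931 with a replicate left out. The stricter filter leaves fewer low rows to test; for DESeq2 the cause was not tested. Rows varying between replicates numbered 345 with no filter and 8 with a mean CPM of at least 1, against 0, and 0 to 20 with a replicate left out, the 20 without replicate 4. Neither Gnas nor Gm20721 passed the test under any of these, with adjusted p of 0.912 and above. The log2 ratio of Gm20721 to Gnas was 11.325 per exon length and 11.122 with unshared Gnas length, against 8.41, and 8.34 to 8.56 with a replicate left out. Gm20721 was 11737 to 13081 CPM and Gnas 31.1 to 40.8 CPM with a replicate left out. The deviation of replicate 4 in Gm20721 was 0.25 with DESeq2 size factors and 0.14 with TMM factors, against -0.08, and the median of all rows moved with it (0.26 and 0.15, against -0.07), and -0.23 to 0.0096 with a replicate left out. That of Gnas was -0.01 with DESeq2 size factors and -0.13 with TMM factors, against -0.35, and -0.59 to -0.065 with a replicate left out. No paired analysis was possible because the series has 1 group. Depth limits the low rows: 3 counts were 1.11 to 1.66 CPM, and Gnas rests on 65 to 104 counts.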
